A study of Homo sapiens with 18 samples.

Results

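The human osteosarcoma line U2OS carrying mutant DNMT3A was compared with the same line carrying wild-type DNMT3A, both after 24 h in 10 µM cytarabine, across all genes. The comparison rests on 6 of the 18 libraries of the study, 3 of the mutant line (MUT) and 3 of the wild-type line (WT), which were chosen by the genotype and treatment in their labels. The other libraries were untreated MUT and WT cells and a line with the empty retroviral vector MigR1 (EV), untreated and after cytarabine, with 3 libraries in each group. The sample labels name the mutation R882H and the series text names it R882C, so the line is called mutant here. The series text describes the cells without drug as vehicle controls, whereas the labels say that they were untreated. Each transgene was an overexpression construct in cells that also have their own DNMT3A gene, and each group was plated as a biological triplicate. The labels name 1 derived line for each construct, so a difference between the lines and a difference between the alleles cannot be told apart, and p-values measure the spread between cultures of 1 line.

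DNMT3A is a de novo DNA methyltransferase: with its relative DNMT3B it places methyl groups on cytosines in CG dinucleotides, whereas DNMT1 copies existing methylation after replication. Changes at this arginine of the catalytic domain are frequent in acute myeloid leukaemia, and the mutant enzyme can interfere with the wild-type enzyme. Cytarabine is a cytidine analogue used against that leukaemia. Cells phosphorylate it, beginning with deoxycytidine kinase, and build it into DNA, where it slows replication forks and sets off the checkpoint and p53 responses.

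Levels are given as CPM, the deposited estimated counts scaled to a common library size, always for replicates 1, 2 and 3 in that order. A log2 difference is MUT minus WT after cytarabine unless another comparison is named, and its standard error is written SE. DNMT3A itself (chr2:25227855-25342591, minus strand, hg38) stood at 532, 515 and 525 CPM in the treated MUT libraries and at 182, 166 and 181 CPM in the treated WT libraries. The treated EV libraries, without a transgene, held 47.1, 49.6 and 45.5 CPM, so both lines overexpressed the gene and MUT had more of its RNA than WT in every library. The log2 difference was 1.57 (SE 0.18; edgeR adjusted p = 6.6e-06), and every result below compares lines that also differ in the amount of DNMT3A RNA. The part of that amount in the differences below was not tested. Counts under this symbol do not separate the transgene from the cells' own gene, and the mutated base was not read here.

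Library totals ran from 19.4 to 21.6 M counts in treated MUT and from 17.1 to 19.8 M counts in treated WT. Pairs of replicates within these groups differed by more than sampling noise (chi-square per degree of freedom from 2.86 to 5.21), so none was a repeat deposit of another. The biological coefficient of variation, the spread beyond counting error, was 0.0696 in treated MUT and 0.0487 in treated WT. It was 0.216 in untreated MUT, the largest of the 6 groups, and these libraries share in the estimate of spread behind every test. DNMT3A itself varied among them, at 500, 615 and 254 CPM, against 131, 129 and 139 CPM in untreated WT.

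After cytarabine the MUT and WT lines differed at 3616 of 18226 tested genes (19.8%; edgeR's quasi-likelihood test, Benjamini-Hochberg adjusted p under 0.05). MUT was higher at 1889 of them (10.4% of tested genes) and lower at 1727 (9.48%). Most differences were small: the median absolute log2 difference of the called genes was 0.45, against 0.21 over all tested genes. An absolute log2 difference above 1 was reached by 654 called genes, 415 higher and 239 lower in MUT, and one above 2 by 145 genes, 108 higher and 37 lower. In bulk RNA a lower level cannot tell fewer expressing cells from less RNA per cell. The MUT and WT libraries did not overlap at 3574 of the called genes and at 8287 (45.5%) of all tested genes. Without WT replicate 2 the count of called genes was 2313 and without MUT replicate 1 it was 2406, whereas each of the other 4 libraries could be left out with 2609 to 2866 genes still called. A fit on the 6 compared libraries alone called 6113 genes, one without the 3 untreated MUT libraries called 5613 (an alternative chosen after seeing the data), and a test against an absolute log2 difference of 1 called 101.

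**Figure D1:**
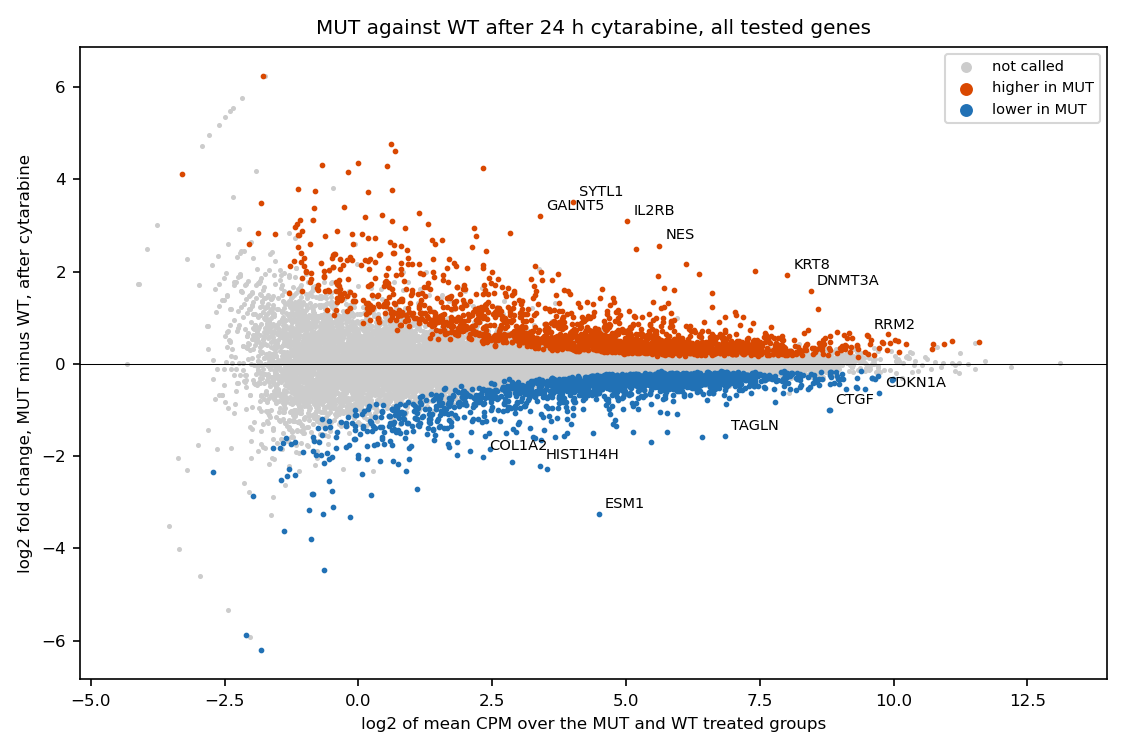
Each point is 1 of the 18226 tested genes, plotted by its log2 mean CPM over the treated MUT and WT groups and its log2 difference between MUT and WT after cytarabine. Orange genes were called higher in MUT (1889), blue genes lower (1727), and IL2RB (3.09) and ESM1 (-3.26) lie far from 0 at moderate abundance.

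The 12 largest rises among protein-coding genes of moderate abundance were in genes of varied function, led by SYTL1, GALNT5 and IL2RB. SYTL1, a synaptotagmin-like protein of vesicle traffic (chr1:27342020-27353938), stood at 27.9, 29.4 and 31.5 CPM in MUT and at 3.15, 2.32 and 2.32 CPM in WT. The groups lay far apart, with a log2 difference of 3.50 (SE 0.21; edgeR adjusted p = 1.0e-09), and EV libraries were between them at 15.4, 10.3 and 12.5 CPM. IL2RB, the beta chain of the interleukin-2 receptor (chr22:37125838-37175055), stood at 59.8, 56.3 and 58.6 CPM in MUT and at 5.43, 7.73 and 7.45 CPM in WT. EV held 38.1, 41.3 and 37.7 CPM, between the lines and nearer to MUT, and the log2 difference was 3.09 (SE 0.13; edgeR adjusted p = 6.6e-12). GALNT5, which starts mucin-type O-glycosylation, stood at 20.5, 18.5 and 17.5 CPM in MUT and at 1.86, 2.65 and 1.64 CPM in WT, a log2 difference of 3.20 (SE 0.18). Its EV libraries, at 14.8, 15.4 and 15.1 CPM, were again nearer to MUT than to WT. CACNA2D4, an auxiliary subunit of calcium channels (2.83), MXRA8, an adhesion-type membrane protein (2.499), C6orf132 (2.12), PLIN4, a coat protein of lipid droplets (2.08), and OR51B5, an olfactory receptor gene that overlaps the globin genes HBE1 and HBG2 in the annotation (1.99), complete the largest log2 differences.

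Genes of intermediate filament proteins did not share a direction. NES, the filament protein nestin, stood at 93.5, 76.6 and 81.8 CPM in MUT and at 16.4, 12.2 and 14.0 CPM in WT (log2 difference 2.56, SE 0.13, edgeR adjusted p = 1.2e-10). KRT17, a keratin of stressed epithelium, stood at 133, 97.3 and 111 CPM in MUT and at 27.3, 23.3 and 25.1 CPM in WT (2.17, SE 0.12), with EV at 116, 119 and 117 CPM. KRT8, a keratin of simple epithelium, stood at 415, 388 and 418 CPM in MUT and at 113, 104 and 104 CPM in WT (1.93, SE 0.10), with EV at 334, 408 and 367 CPM. For these 3 genes MUT was near the empty vector line and WT was the low line. KRT75, a keratin of hair follicles, took another course: MUT held 141, 118 and 132 CPM, WT 38.6, 29.8 and 32.3 CPM and EV 24.6, 24.4 and 26.2 CPM. Here MUT was above both other lines, and the log2 difference from WT was 1.95 (SE 0.11; edgeR adjusted p = 7.4e-10). VIM, the mesenchymal filament protein vimentin, did not pass the test, at 1203, 1078 and 1201 CPM in MUT and 1153, 1159 and 1142 CPM in WT (0.01, SE 0.09, edgeR adjusted p = 0.94). GFAP, the filament protein of astrocytes, was lower in MUT, at 1.71, 1.10 and 1.44 CPM against 5.01, 4.81 and 5.03 CPM (-1.80, SE 0.25, edgeR adjusted p = 5.7e-05). Keratin genes resemble each other and KRT8 overlaps KRT18 on the opposite strand, so the split of reads between such genes is uncertain where the counting is not described.

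Among protein-coding genes of moderate abundance the 12 largest falls were led by ESM1, DSP and the histone gene HIST1H4H. The histone genes HIST1H2BJ (-2.14), HIST1H2BD and HIST1H2AG were also among these 12, and the remaining genes were of varied function. ESM1, the secreted proteoglycan endocan (chr5:54977864-55022672), stood at 3.65, 4.69 and 4.40 CPM in MUT and at 34.4, 46.4 and 41.3 CPM in WT. WT was the high line, since EV held 6.21, 8.74 and 7.61 CPM, and the log2 difference was -3.26 (SE 0.21; edgeR adjusted p = 2.5e-09). MUT was also called lower than EV at ESM1, by a smaller log2 difference (-0.82, edgeR adjusted p = 0.016). DSP, the desmosomal protein desmoplakin, stood at 3.52, 5.12 and 3.09 CPM in MUT and at 17.0, 22.8 and 17.2 CPM in WT (-2.28, SE 0.20). COL1A2, the alpha-2 chain of type I collagen, stood at 1.80, 2.11 and 2.00 CPM in MUT and at 7.98, 8.11 and 7.83 CPM in WT (-2.01, SE 0.25), whereas COL1A1, the alpha-1 chain of the same collagen, was the higher one in MUT. COL1A1 held 294, 237 and 283 CPM in MUT, 67.9, 62.6 and 72.9 CPM in WT and 258, 223 and 240 CPM in EV, so MUT and EV overlapped and WT was low (2.00, SE 0.10, edgeR adjusted p = 2.4e-10). Lower in MUT were also the sodium channel gene SCN2A (-1.85), the TNF family ligand TNFSF15 (-1.65), the actin-binding coronin CORO2B (-1.59) and the asparaginase-like gene ASRGL1 (-1.58). AC008012.1 (-1.70) overlaps CCND2 on the same strand, and CCND2 itself, cyclin D2, was lower at -0.84 (SE 0.08), so their reads may not be separable.

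Among abundant genes, those with the smallest p-values that fell included a contractile and a matrix gene. TAGLN, an actin-binding protein of contractile cells, stood at 50.4, 66.0 and 58.0 CPM in MUT and at 165, 194 and 156 CPM in WT, and CTGF, a secreted matrix protein, at 281, 301 and 302 CPM against 563, 639 and 568 CPM. No library of one group reached the range of the other at either gene, and the log2 differences were -1.56 and -1.001 (edgeR adjusted p = 1.4e-07 and 7.9e-08). EV libraries held CTGF at 278 to 304 CPM, so WT was the high line. Abundant genes that rose were TUBB2B, a beta-tubulin (1.23), MMP2, a gelatinase (1.01), and LIMCH1, an actomyosin regulator (0.90).

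**Figure D2:**
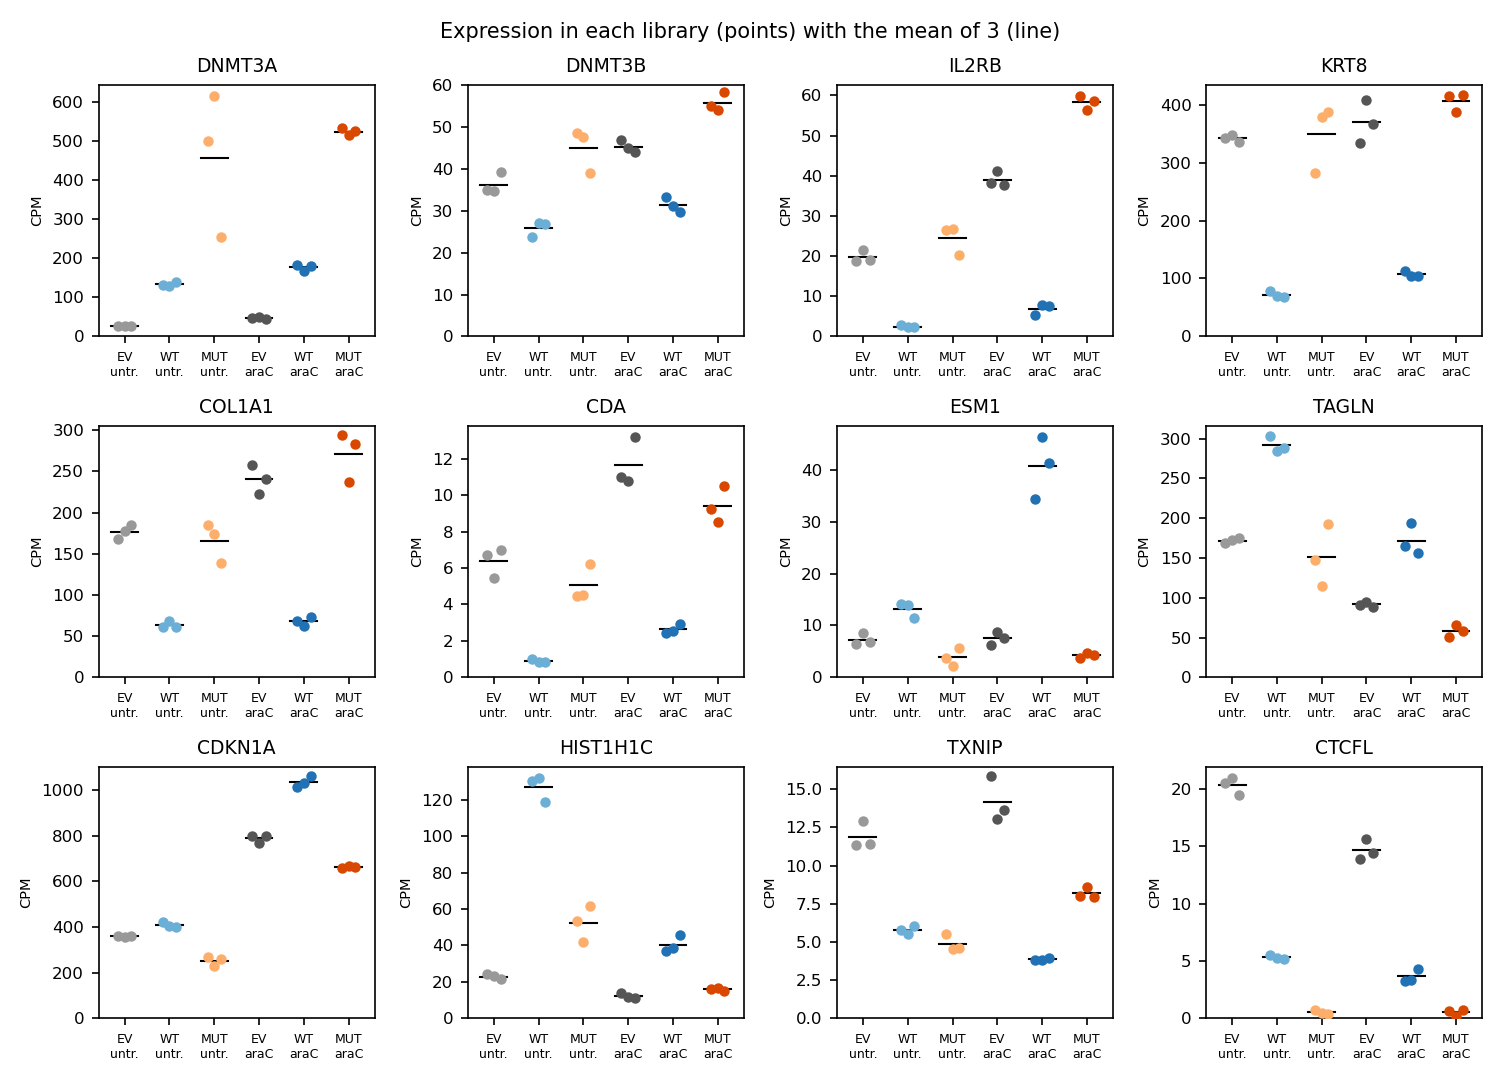
CPM of 12 genes in every library (points) with the mean of 3 (line) for the 6 groups, each panel with a linear axis that starts at 0. DNMT3A separates all 3 lines, COL1A1 and KRT8 are low in WT, and ESM1 is high in WT.

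The promoter of KRT75 is printed because it is poor in CG, the dinucleotide that DNMT3A methylates, as were many genes with large differences. It is the 150 bases before the transcription start of the canonical transcript in GENCODE v44, read from hg38 at chr12:52434372-52434521 (minus strand) and written 5′ to 3′ on the gene's strand, with every CG in capitals.
KRT75: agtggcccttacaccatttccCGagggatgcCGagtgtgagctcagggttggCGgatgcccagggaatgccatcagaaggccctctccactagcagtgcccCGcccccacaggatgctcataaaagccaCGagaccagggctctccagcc
The printed stretch holds 5 CG, and the 300 bases from 250 before to 50 after the start hold 8. CG reads the same on both strands, and 99.549% of such windows of the tested protein-coding genes held at least 1.

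Genes with large differences more often had promoters poor in CG than the tested genes as a whole. Fewer than 10 CG were found in 10.99% of 13755 windows of tested protein-coding genes (1512 genes; median 27 CG). The share was 35.6% of 334 genes called higher by a log2 difference above 1 (median 14 CG) and 41.3% of 138 genes called lower by as much (median 12.5 CG). Only genes with a window are counted, which 97.1% of the 344 higher and 86.8% of the 159 lower genes had. Among called genes with smaller differences the share with fewer than 10 CG was 8.0% (median 28 CG), so called genes as such were not poor in CG. The pattern was also present within abundance classes: below the median abundance the share was 37.7% of 440 genes with large differences against 18.9% of tested genes, and above it 31.25% of 32 genes against 3.41%. These are descriptions with no test, and no methylation was measured here.

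Gene lists are read against all tested genes, of which 10.4% were higher and 9.48% lower in MUT. In untreated cells 11.7% of tested genes were higher and 9.54% lower, and a difference of cytarabine effects was called at 1.00%. Untreated list counts are from the full fit only and rest on the untreated MUT libraries, which spread the most. Genes of the methylation machinery other than DNMT3A differed less than it. Of 17 tested writers, readers and erasers, 5 were higher and 1 was lower in MUT, and the median log2 difference was 0.05 against 0.00 over all tested genes. DNMT3B stood at 55.0, 54.2 and 58.5 CPM in MUT and at 33.3, 31.1 and 29.7 CPM in WT (log2 difference 0.83, SE 0.08, edgeR adjusted p = 1.3e-06), and EV held 46.8, 45.1 and 44.2 CPM. UHRF1, which recruits DNMT1 to replicated DNA, stood at 128, 133 and 147 CPM against 98.8, 103 and 108 CPM (0.40, SE 0.09, edgeR adjusted p = 0.0033). DNMT1 did not pass the test (0.11, SE 0.08, edgeR adjusted p = 0.33), nor did the oxidases TET2 (-0.17, SE 0.15) and TET3 (0.13, SE 0.15). The third oxidase, TET1, was called higher in MUT, with a log2 difference of 0.52 to 0.84 depending on the fit. Its call was lost without MUT replicate 1, MUT replicate 2, WT replicate 2 or WT replicate 3. Without WT replicate 2 or WT replicate 3 the higher count was 3, and the lower gene, MBD1, was called in only 1 of the 6 fits that left out a library, the one without MUT replicate 3.

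Chromatin silencing genes had more rises than falls. Of 25 tested Polycomb and H3K9 methylation genes, 8 were higher and 2 were lower in MUT (median 0.10), against 4 higher and 4 lower without drug. EZH2, the catalytic subunit of Polycomb complex 2, stood at 25.1, 28.7 and 29.1 CPM in MUT and at 19.2, 19.5 and 18.9 CPM in WT (0.52, SE 0.10), and CBX2, a chromodomain subunit of Polycomb complex 1, at 121, 109 and 116 CPM against 81.9, 88.4 and 83.2 CPM (0.45, SE 0.07). The ranges did not overlap for either gene. The count of 8 was 4 without MUT replicate 3 or WT replicate 1 and 5 without MUT replicate 1, WT replicate 2 or WT replicate 3.

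Genes known to be silenced by DNA methylation showed no common direction. Of 50 listed germline genes 24 passed the filter on low counts, with 4 higher (16.7%) and 5 lower (20.8%) in MUT, against 4 higher and 1 lower without drug. Leaving out 1 library gave 1 higher without MUT replicate 1 and 2 higher in each other case, and 3 lower without MUT replicate 1 or WT replicate 2. CTCFL, the testis paralogue of CTCF, stood at 0.659, 0.239 and 0.741 CPM in MUT, at 3.29, 3.35 and 4.30 CPM in WT and at 13.9, 15.6 and 14.4 CPM in EV. The 3 lines were thus ordered without overlap, and the log2 difference between MUT and WT was -2.71 (SE 0.25; edgeR adjusted p = 3.1e-07). The cancer-testis genes MAGEA12 (-0.46) and MAGEA1 (-0.40) were also lower, and the tubulin TUBA3C was higher (0.73). MAGEA and alpha-tubulin genes have near-identical copies, so their counts are uncertain. Of 26 imprinted genes 2 were higher (7.69%) and 4 lower (15.4%), shares near those of all tested genes, with 0 higher without MUT replicate 1, 1 higher without MUT replicate 3 or any WT library, and 2 lower without MUT replicate 2. MEG3, a maternally expressed non-coding RNA, stood at 0.00, 0.0958 and 0.0436 CPM in MUT and at 1.48, 1.08 and 0.822 CPM in WT (edgeR adjusted p = 0.00034), where the MUT values rest on a few counts. Of 33 HOX genes 2 were higher (6.06%) and 4 lower (12.1%), again near the background, among them HOXD9 (0.56) and HOXA3 (-0.64), with 1 higher without MUT replicate 1 and 2 lower without MUT replicate 2 or WT replicate 2.

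A large part of the p53 targets was lower in MUT after cytarabine. Of 33 tested targets 14 were lower and 1 was higher, with a median log2 difference of -0.17, and leaving out 1 library gave 11 to 13 lower. CDKN1A, the cell cycle inhibitor p21, stood at 660, 666 and 663 CPM in MUT and at 1014, 1031 and 1062 CPM in WT. The EV libraries were between the lines at 798, 768 and 801 CPM, and the log2 difference was -0.64 (SE 0.06; edgeR adjusted p = 4.1e-07). TP53I3, a p53-induced oxidoreductase, stood at 90.7, 95.0 and 86.0 CPM against 148, 153 and 154 CPM (-0.75, SE 0.07), and ZMAT3, an RNA-binding protein, at 112, 107 and 108 CPM against 157, 162 and 140 CPM (-0.49, SE 0.07). MUT and WT did not overlap at either. GDF15, a stress cytokine, did not pass the test in the full fit at -0.34 (SE 0.12, edgeR adjusted p = 0.058). It was called lower in 5 of 17 fits without a minimum difference, over which its log2 difference ran from -0.40 to -0.28. In untreated cells 10 of the 33 targets were lower and 2 higher (median -0.08), and the untreated log2 difference of CDKN1A was -0.69.

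Cell cycle genes went the other way. Of 45 tested G2 and mitosis genes 18 were higher and 0 were lower in MUT by edgeR's test (median 0.19; 1 lower at an unadjusted p under 0.05 and 1 by DESeq2). BUB1, a spindle checkpoint kinase, stood at 148, 148 and 148 CPM in MUT and at 118, 112 and 109 CPM in WT (0.39, SE 0.06, edgeR adjusted p = 0.00028). The mitotic kinesins KIF2C (0.41) and KIF20A (0.43) and the spindle protein DLGAP5 (0.36) differed by similar amounts, and EV held 137, 162 and 145 CPM of BUB1, on both sides of MUT. The count of 18 was 11 without WT replicate 2 and 12 without MUT replicate 3, and 30 with the 6 compared libraries alone. Over the whole list the untreated lines had 19 higher and 0 lower (median 0.20).

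Of 49 replication genes and E2F targets, 14 were higher and 5 lower (median 0.09), with 10 to 12 higher when 1 library was left out. Untreated, 18 were higher and 3 lower (median 0.17). RRM2, the regulated subunit of ribonucleotide reductase, which supplies the deoxynucleotides that compete with cytarabine, stood at 865, 901 and 885 CPM in MUT and at 556, 594 and 577 CPM in WT. No library overlapped, the log2 difference was 0.62 (SE 0.06; edgeR adjusted p = 1.6e-06), and EV was lowest at 444, 474 and 480 CPM. The activating factor E2F2 was higher by 0.57 (SE 0.09) and the polymerase subunit POLD3 by 0.37 (SE 0.06). The origin factor MCM10 (-0.24) and the flap nuclease FEN1 (-0.27) were lower. The lower count of 5 was 2 without MUT replicate 1, MUT replicate 3, WT replicate 2 or WT replicate 3 and 3 without WT replicate 1.

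Replication-dependent histone genes had the lowest median of the 34 lists. Of 57 listed genes only 18 passed the filter on low counts, and 14 of these were lower in MUT and 0 higher by edgeR's test, with a median of -1.33 (1 higher at an unadjusted p under 0.05, 0 by DESeq2). HIST1H1C, the linker histone H1.2, stood at 16.1, 16.8 and 14.99 CPM in MUT and at 37.1, 38.6 and 45.7 CPM in WT (-1.34, SE 0.12, edgeR adjusted p = 2.0e-07). HIST1H4H, a histone H4 gene, stood at 3.16, 3.78 and 4.18 CPM against 17.3, 18.3 and 15.9 CPM (-2.21, SE 0.16). EV held 13.7, 11.7 and 11.3 CPM of HIST1H1C and 2.88 to 3.46 CPM of HIST1H4H, so WT was the high line at both. HIST2H2BE (-1.31), HIST1H2BD (-1.62) and HIST1H2AG (-1.57) were lower too. Leaving out 1 library gave 13 or 14 lower, and untreated cells had 13 lower with a median of -1.02. Histone genes resemble each other closely, so counts for a single gene are uncertain.

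Ribosomal protein genes were slightly higher in MUT as a group: 26 of 78 passed edgeR's test and the median was 0.26, while 0 were lower by edgeR, by DESeq2 or at an unadjusted p under 0.05. RPL3 stood at 1200, 1089 and 1122 CPM in MUT and at 826, 804 and 851 CPM in WT (0.46, SE 0.07), and RPL13A at 714, 591 and 670 CPM against 413, 414 and 451 CPM (0.63, SE 0.09). The difference was larger without drug, with 61 higher and a median of 0.44, and the count of 26 was 56 with the 6 compared libraries alone. Processed pseudogenes, many of which derive from such genes, had a median of 0.24 over 1022 tested (41 higher, 18 lower), against 0.00 for 14309 protein-coding genes (1735 higher, 1494 lower), -0.13 for 878 long intergenic RNAs and -0.16 for 929 antisense genes. Nuclear genes of oxidative phosphorylation stayed near 0 (2 higher and 4 lower of 58, median 0.01; 1 lower without MUT replicate 2, 2 lower without WT replicate 1, and 1 higher whichever library was left out), and 0 of the 13 mitochondrially encoded genes passed edgeR's or DESeq2's test or had an unadjusted p under 0.05. With the 6 compared libraries alone 2 of these 13 were higher and 2 lower. Untreated, 14 of the 58 nuclear genes were higher (median 0.20).

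In the full fit, genes that handle cytarabine differed in a few members only. CDA, cytidine deaminase, which inactivates the drug, stood at 9.27, 8.52 and 10.5 CPM in MUT and at 2.41, 2.54 and 2.95 CPM in WT, with EV at 11, 10.8 and 13.2 CPM. WT was thus the low line, and the log2 difference was 1.84 (SE 0.16; edgeR adjusted p = 2.4e-07). SAMHD1, which hydrolyses the active triphosphate, stood at 124, 126 and 121 CPM in MUT and at 96.9, 89.8 and 94.6 CPM in WT (0.40, SE 0.07, edgeR adjusted p = 0.00040). DCK, the kinase of the first phosphorylation step, stood at 72.1, 69.6 and 75.2 CPM against 73.2, 73.5 and 68.4 CPM, and the uptake transporter SLC29A1 at 101, 88.3 and 94.6 CPM against 101, 88.8 and 103 CPM. These ranges overlapped, with log2 differences of 0.01 (SE 0.10) and -0.04 (SE 0.07) that did not pass the test. Of all 20 tested genes of the list 3 were higher (15%) and 2 lower (10%), shares near the 10.4% and 9.48% of all tested genes. The 3 higher ones, CDA, SAMHD1 and RRM2, were called in every fit that left out 1 library. The lower count fell to 0 without MUT replicate 1, MUT replicate 3, WT replicate 2 or WT replicate 3. With the 6 compared libraries alone 5 of the list were higher and 7 lower. That fit called 3103 genes higher and 3010 lower of 17846 tested. Untreated, 6 were higher and 2 lower.

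Of 58 genes of fork protection, the checkpoint and Fanconi repair 8 were higher (13.8%, near the 10.4% of all tested genes) and 2 lower (median 0.09), with 5 higher without MUT replicate 2 or WT replicate 1. WEE1, the kinase that restrains entry into mitosis, stood at 58.3, 70.5 and 61.9 CPM in MUT and at 42.8, 44.5 and 45.1 CPM in WT (0.53, SE 0.09, edgeR adjusted p = 0.00032). PARP10, a mono-ADP-ribosyltransferase, stood at 69.5, 74.6 and 78.7 CPM against 39.1, 41.9 and 40.4 CPM (0.88, SE 0.09), RAD50 was higher by 0.39 and the recombination gene RAD51C was lower (-0.32, SE 0.08). CHEK1 (0.15, SE 0.07) and PARP1 (0.02, SE 0.07) did not pass the test. Of 16 genes of the BCL2 family 5 were higher and 2 lower. BMF, which binds and opposes BCL2, stood at 8.92, 7.33 and 6.80 CPM in MUT and at 2.74, 1.51 and 2.76 CPM in WT (1.71, SE 0.26), and BIK (1.78) and BCL2L11 (0.61), also promoters of cell death, were higher. The protective BCL2 was higher as well (0.50), and the protective BCL2L1 was lower (-0.33, SE 0.06). Leaving out 1 library gave 4 or 5 higher and 1 or 2 lower.

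Matrix genes were changed in both directions. Of 29 collagen genes 11 were higher and 5 lower in MUT (median 0.19; 3 lower without WT replicate 1). Untreated, 6 of the 29 were higher and 11 lower (median -0.29), and 3 had a called difference of cytarabine effects. COL16A1, a fibril-associated collagen, stood at 73.1, 76.3 and 79.5 CPM in MUT and at 21.2, 18.6 and 21.5 CPM in WT (1.90, SE 0.12), with EV at 65.2, 55.0 and 68.8 CPM. The basement membrane collagen COL4A2 was higher by 0.51, and the transmembrane collagens COL17A1 (-0.60) and COL13A1 (-0.59) were lower. Of 35 matrix remodelling genes 11 were higher and 8 lower. ADAMTS2, which trims procollagen, stood at 27.5, 20.6 and 20.8 CPM in MUT and at 8.999, 7.40 and 7.59 CPM in WT (1.52, SE 0.13), and TIMP2, an inhibitor of metalloproteinases, was higher by 0.44. The stromelysin MMP3 (-1.03) and the urokinase PLAU (-0.46) were lower. The lower count of 8 was 4 without MUT replicate 1, WT replicate 1 or WT replicate 3 and 5 without MUT replicate 2 or MUT replicate 3. Of 29 integrins and laminins 3 were higher (10.3%, near the 10.4% of all tested genes) and 7 lower (24.1%). ITGB4 was at 1.13 (SE 0.11) and ITGA2, the alpha-2 chain of a collagen receptor, at -1.08 (SE 0.10). The lower count of 7 was 4 without MUT replicate 1, MUT replicate 3, WT replicate 2 or WT replicate 3. The higher count of 3 was 1 without MUT replicate 3 or WT replicate 2.

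TGF-beta and BMP pathway genes had more rises than falls: 13 of 39 rose and 2 fell (median 0.18), with 10 to 12 higher and 0 or 1 lower when 1 library was left out. Untreated, 5 of the 39 were higher and 8 lower (median -0.01), and 3 had a called difference of cytarabine effects. BMP4, a ligand, stood at 98.6, 85.2 and 97.5 CPM in MUT and at 57.6, 46.9 and 55.0 CPM in WT (0.82, SE 0.09, edgeR adjusted p = 1.9e-06). TGFB2, a ligand, stood at 184, 178 and 175 CPM against 134, 125 and 122 CPM (0.49, SE 0.07). ID4, an inhibitor of helix-loop-helix factors and a BMP target, was higher by 0.71 (SE 0.12), and the helix-loop-helix factor ATOH8 by 2.45 (SE 0.22). CTGF, commonly used as a readout of TGF-beta, was lower as given above. Of 40 Wnt genes 9 were higher and 2 lower, with 6 to 11 higher when 1 library was left out and the lowest count without WT replicate 2. Untreated, 5 were higher and 7 lower (median -0.10). The R-spondin receptors LGR5 (1.67) and LGR4 (0.74) and the ligase RNF43 (1.07), which clears Wnt receptors, were higher, and the inhibitor NKD2 was lower (-1.42, SE 0.27). Of 42 semaphorin, plexin and axon guidance genes 7 were higher (16.7%) and 5 lower (11.9%), or 3 lower without MUT replicate 1. SEMA3B was at 1.34 (SE 0.12) and SLIT3 at -1.08 (SE 0.14).

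Several cholesterol synthesis genes were lower in MUT: 10 of 25 passed edgeR's test, 0 were higher (0 by DESeq2, 2 at an unadjusted p under 0.05), and the median was -0.18. NSDHL, a sterol dehydrogenase, stood at 41.2, 44.2 and 42.0 CPM in MUT and at 58.5, 63.1 and 59.2 CPM in WT (-0.50, SE 0.07, edgeR adjusted p = 5.5e-05), with EV at 53.8, 49.4 and 58.2 CPM. DHCR7, the last reductase of the pathway, stood at 116, 123 and 122 CPM against 160, 158 and 157 CPM (-0.40, SE 0.07). FDFT1, squalene synthase, stood at 147, 148 and 149 CPM against 188, 189 and 185 CPM (-0.34, SE 0.06), and all 3 genes were without overlap. In untreated cells 3 of the 25 were higher and 1 was lower (median 0.07). The treated count of 10 was 5 without MUT replicate 1 or WT replicate 2, 6 without MUT replicate 3 or WT replicate 3, and 6 with the authors' factors.

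Of 20 cytosolic aminoacyl-tRNA synthetases, which load amino acids onto tRNAs, 6 were lower and 1 was higher (median -0.09), among them NARS (-0.38), KARS (-0.31) and RARS (-0.32). The lower count was 3 without MUT replicate 1 or WT replicate 2, and the higher gene, QARS, was not called in any fit that left out 1 library. Untreated, 8 of the 20 were higher and 1 was lower in MUT (median 0.15), and 1 gene had a called difference of cytarabine effects. Of 35 genes of the integrated stress response 5 were higher (14.3%) and 7 lower (20%). FGF21, a secreted stress hormone, stood at 12, 11.2 and 11.8 CPM in MUT and at 5.71, 3.19 and 5.22 CPM in WT (1.30, SE 0.21), and ALDH1L2, of mitochondrial folate metabolism, was higher by 0.97, whereas the serine synthesis gene PSAT1 was lower (-0.29). The lower count of 7 was 1 without MUT replicate 1, 3 without MUT replicate 3 or WT replicate 2 and 4 without WT replicate 3. The higher count of 5 was 3 without MUT replicate 1, MUT replicate 3, WT replicate 1 or WT replicate 3. Untreated, 9 were higher and 3 lower.

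Interferon-stimulated and NF-kB genes had more calls higher than lower in MUT, with list medians near 0. Of 38 interferon-stimulated genes 9 were higher (23.7%) and 4 lower (10.5%), with a median of 0.02. Leaving out 1 library gave 7 or 8 higher, and 2 lower without MUT replicate 1 or MUT replicate 3. Untreated, 11 were higher and 3 lower. The RNA sensors IFIH1 and DDX58 moved apart: IFIH1 (MDA5) stood at 13.5, 11.6 and 12.7 CPM in MUT and at 7.98, 6.70 and 8.80 CPM in WT (0.69, SE 0.12), and DDX58 (RIG-I) at 14.1, 13.0 and 12.9 CPM against 20.04, 22.9 and 20.7 CPM (-0.67, SE 0.12). The ranges did not overlap for either. Of 33 NF-kB, cytokine and chemokine genes 8 were higher (24.2%) and 2 lower (6.06%), with a median of -0.03. Untreated, 9 were higher and 4 lower. ICAM1, an adhesion molecule for leukocytes, stood at 5.49, 4.74 and 4.79 CPM in MUT and at 1.02, 1.51 and 1.06 CPM in WT (2.07, SE 0.18), with EV highest at 9.10, 10.2 and 8.85 CPM. The cytokine CSF1 was higher (0.40), and PTGS2, which makes prostaglandin precursors, was lower (-0.93). The higher count was 5 without WT replicate 1, and the lower one 3 or 4 without MUT replicate 1, MUT replicate 3 or WT replicate 1. With DESeq2 7 were higher and 5 lower, and with the 6 compared libraries alone 8 were higher and 5 lower. Of 29 immediate early genes 3 were higher (10.3%, near the 10.4% of all tested genes), FOSL2 (0.53), DUSP2 (0.65) and ARC (0.33). Lower were 5 (17.2%), among them the phosphatases DUSP5 (-1.08) and DUSP1 (-0.44). The lower count was 3 without MUT replicate 1 or WT replicate 2. Of 20 genes of antigen presentation 2 were higher (10%), PSMB9 (0.56) and ERAP1 (0.44), and 1 was lower (5%). These shares were near or below those of all tested genes. The lower gene was TAP1 (-0.26, not called without MUT replicate 2, MUT replicate 3 or WT replicate 3). PSMB9 and TAP1 overlap on opposite strands.

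**Figure D3:**
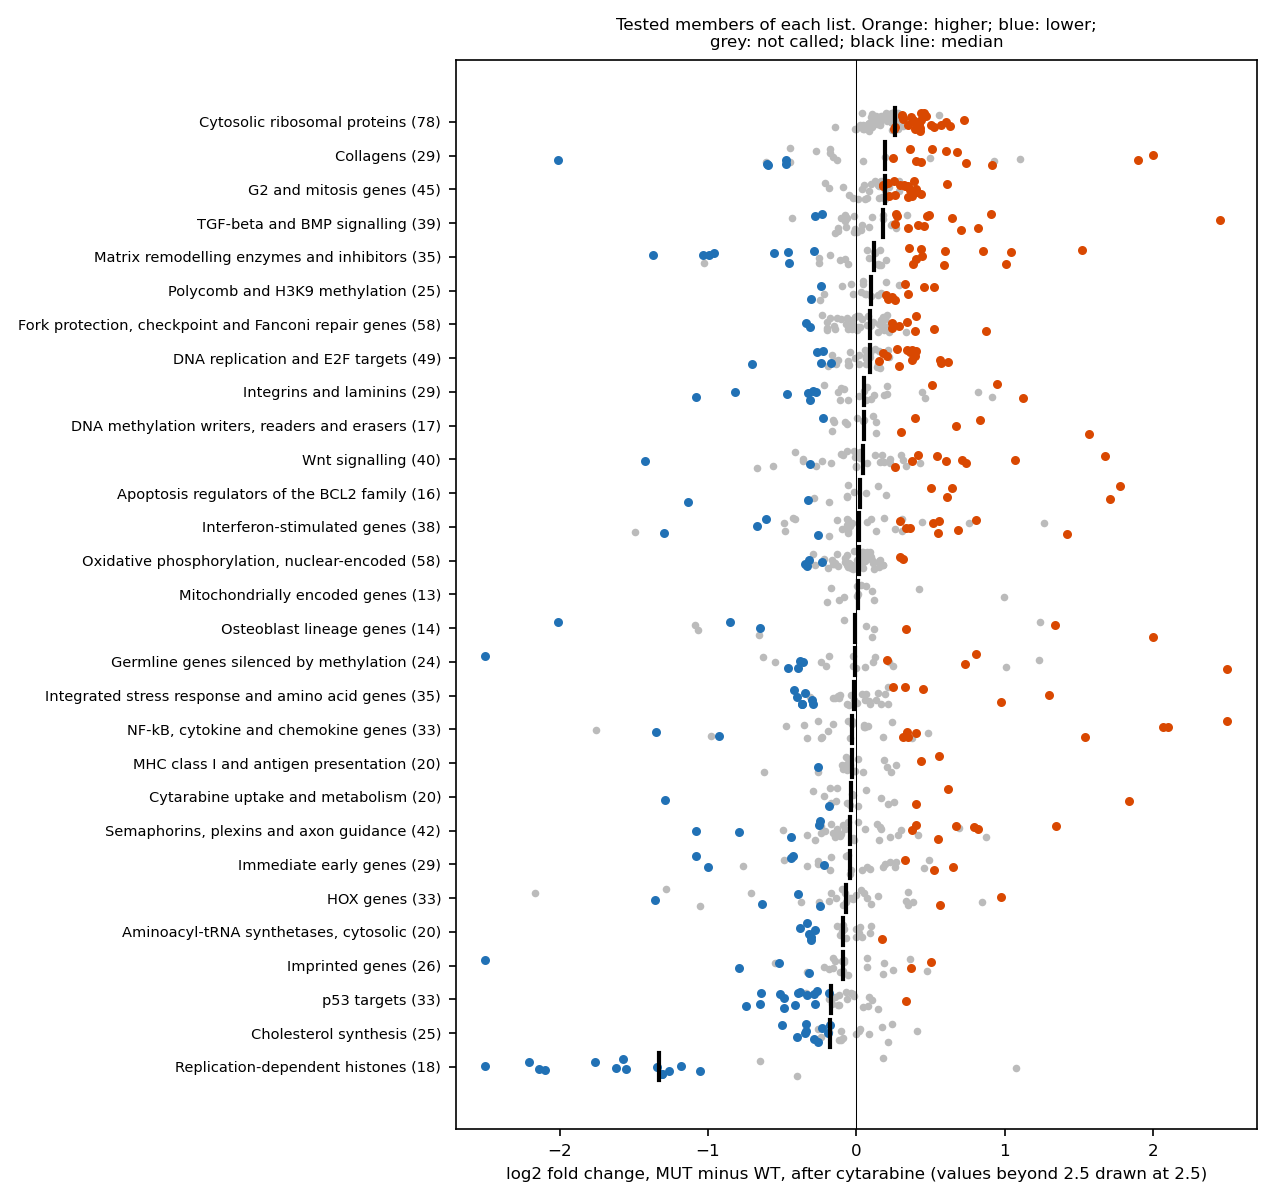
Each row is a gene list with its number of tested genes, and each point is a tested gene placed by its log2 difference between MUT and WT after cytarabine (5 members beyond 2.5 are drawn at 2.5). Lists of cell type markers are not drawn. Black lines are medians, which run among the lists drawn from 0.26 for ribosomal proteins to -1.33 for replication-dependent histones.

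Marker genes of other cell types were examined because all libraries should hold U2OS cells alone. Mesenchymal and osteosarcoma markers summed to 4394 to 4925 CPM in MUT and 4260 to 4582 CPM in WT, with 2 of 13 higher, COL1A1 and the surface protein THY1 (1.06), and 4 lower (2 without MUT replicate 3 or WT replicate 2). Osteoblast lineage genes had 3 higher and 3 lower of 14, with TNFRSF11B, the decoy receptor osteoprotegerin, at 62.9, 62.4 and 69.5 CPM in MUT and 26.7, 24.1 and 26.4 CPM in WT (1.34, SE 0.09), whereas RUNX2 did not pass the test (0.12, SE 0.11). Epithelial markers summed to 781 to 811 CPM in MUT and 487 to 510 CPM in WT, with 4 of 8 tested higher and 0 lower (0 lower by DESeq2 or at an unadjusted p under 0.05). KRT8 alone, with means of 407 and 107 CPM, differed by about as much as these sums. The defining epithelial factors GRHL2 and OVOL1 were at or under 3 counts in every treated library or absent from the table, and the count of 4 was 1 without MUT replicate 1 and 2 without WT replicate 2. Blood markers summed to 38.7 to 40.8 CPM in MUT and 34.4 to 37.0 CPM in WT, and CD14, CD3E, HBA1 and HBB, among others, were at or under 3 counts or absent. Of this list CD3D, a T-cell receptor chain, was higher (1.46, SE 0.24). Endothelial markers summed to 76.2 to 95.8 CPM against 75.2 to 80.4 CPM, with CDH5, VE-cadherin, higher (2.19, SE 0.24). Neural markers summed to 184 to 207 CPM against 151 to 161 CPM, and DCX and NEUROD1 were at or under 3 counts or absent. NES alone, with means of 83.9 and 14.2 CPM, differed by more than these sums. Of 9 tested neural markers 2 were higher, NES and SOX2 (0.74), and 3 were lower, the synaptic gene SYP (-1.44, SE 0.12), GFAP and the tubulin TUBB3 (-0.26), with a median of -0.24. Whichever library was left out 1 was higher, and 2 or 3 were lower.

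The same lines without drug were measured in other libraries. Untreated MUT and WT differed at 3872 genes (21.2%), 2134 higher (11.7%) and 1738 lower (9.54%) in MUT. With DESeq2's size factors in edgeR (RLE) the share of higher calls was 65.4% against 55.1%, and with the authors' factors it was 64.3%. In treated cells that share was 50.5% with RLE factors and 57.0% with the authors' factors, against 52.2%. Of the genes called after cytarabine 1785 (49.4%) were called in the same direction without it, which is 46.1% of the untreated calls, and 23 were called in opposite directions. A further 1808 were called with drug only, but 1432 of them had the same sign without it. In all, 3217 (89.0%) of the treated calls kept their sign. Across the 18226 genes the 2 log2 differences had a Pearson correlation of 0.55 and a Spearman correlation of 0.53, as a description of genes that are not independent.

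**Figure D4:**
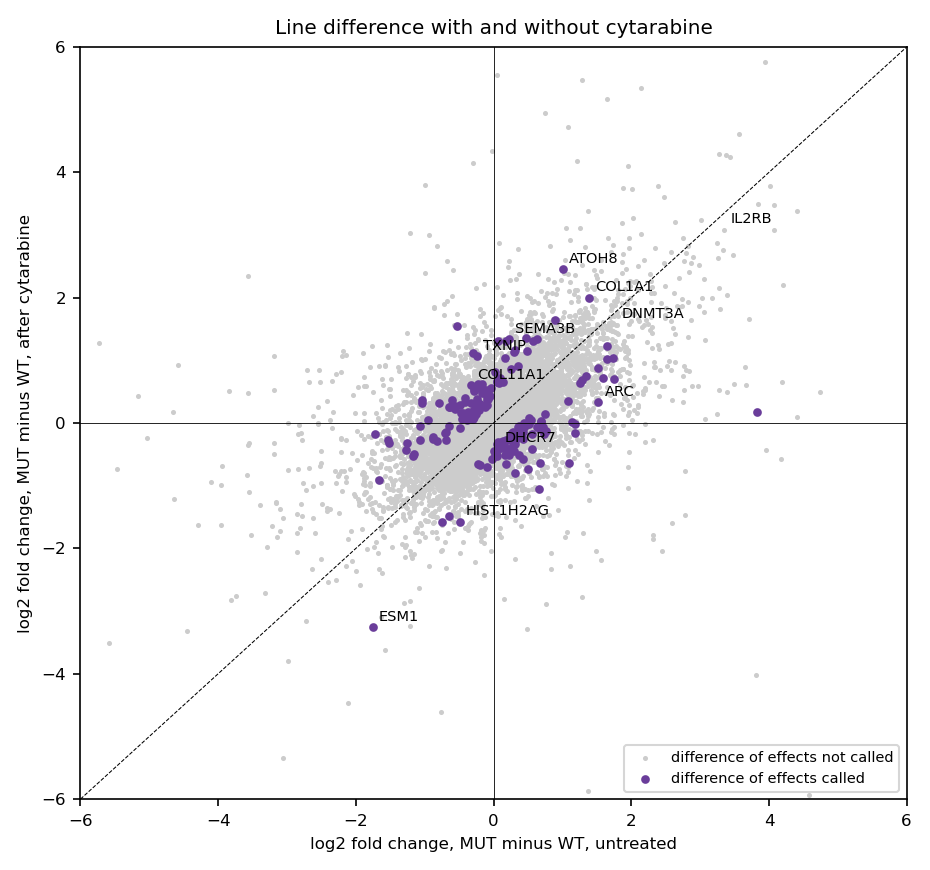
Log2 difference between MUT and WT after cytarabine (vertical axis) against that in untreated cells (horizontal axis) for every tested gene, with 12 genes outside the axes. Of the genes called after cytarabine 89.0% lie on the same side of 0 on both axes, and 183 genes had a called difference of cytarabine effects.

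The difference between the 2 line contrasts was tested directly, as the cytarabine effect in MUT minus that in WT. It was called at 183 genes (1.00%), 93 positive and 90 negative, of which 118 were among the genes called after cytarabine. This count moved from 38 without treated WT replicate 2 to 810 without untreated MUT replicate 1, was 795 with DESeq2, and 34 genes were called whichever library was left out. The untreated MUT libraries, which spread the most, move with it: without replicates 2 or 3 of that group 674 and 337 genes were called. Leaving out replicates 1, 2 and 3 in turn gave 43, 112 and 48 genes for treated MUT, 90, 38 and 59 for treated WT, and 69, 58 and 53 for untreated WT. The share of positive calls was 50.8%, against 29.1% with RLE factors, 22.8% with DESeq2 and 36.3% with a minimum mean of 50 counts.

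The calls of TXNIP, SEMA3B, LOXL3, COL11A1 and TGFB2 held in every fit that left out 1 library. TXNIP, an inhibitor of thioredoxin, stood at 8.04, 8.57 and 7.93 CPM in treated MUT and at 3.85, 3.84 and 3.96 CPM in treated WT (1.07, SE 0.12). Untreated, MUT held 5.52, 4.53 and 4.63 CPM and WT 5.79, 5.55 and 6.05 CPM, with MUT just below WT and no call (-0.24, edgeR adjusted p = 0.18), and the difference of the cytarabine effects was 1.31 (edgeR adjusted p = 0.0022). SEMA3B, a secreted semaphorin, stood at 28.1, 23.6 and 30.6 CPM in treated MUT and at 10.4, 11.1 and 11.02 CPM in treated WT, but at 7.17, 6.04 and 7.37 CPM against 6.28, 5.50 and 5.94 CPM untreated. Both lines held more with the drug and MUT the most, with a difference of effects of 1.12 (edgeR adjusted p = 0.0061). LOXL3, a collagen cross-linking oxidase, held more with the drug in MUT, whereas its treated and untreated WT values overlapped: 18.1, 15.8 and 17.9 CPM against 8.54, 8.48 and 8.07 CPM treated, and 8.47, 8.99 and 8.22 CPM against 6.82, 8.10 and 8.03 CPM untreated (0.88, edgeR adjusted p = 0.0076). COL11A1, a fibrillar collagen, reversed its order, being higher in treated MUT (58.1, 52.95 and 58.1 CPM against 40.2, 33.3 and 38.0 CPM) and lower in untreated MUT (14.9, 13.6 and 11.8 CPM against 17.9, 17.5 and 15.3 CPM). Its difference of effects was 0.93 (edgeR adjusted p = 0.0031). TGFB2 differed by 0.60 (edgeR adjusted p = 0.0074), since untreated MUT held 170, 179 and 177 CPM and untreated WT 184, 190 and 195 CPM.

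In the other direction ARC, an immediate early gene of synaptic plasticity, had the smallest p-value of the named genes, and it, SERTAD1 and HIST1H2AG were called in every fit that left out 1 library. It stood at 62.1, 63.5 and 63.5 CPM in treated MUT against 49.5, 50.1 and 51.0 CPM in treated WT, and at 51.1, 53.8 and 57.5 CPM against 18.5, 17.6 and 20.4 CPM untreated. The gap between the lines thus narrowed with the drug, by -1.20 on the log2 scale (edgeR adjusted p = 2.2e-06). SERTAD1, a regulator of cyclin D kinases and listed here as a p53 target, stood at 24.8, 24.6 and 23.7 CPM against 37.2, 39.5 and 37.9 CPM treated, and at 29.8, 31.9 and 40.4 CPM against 26.7, 30.8 and 32.2 CPM untreated. The untreated ranges overlapped and the treated ones did not (-0.84, edgeR adjusted p = 0.0059). HIST1H2AG, a histone H2A gene, differed by -1.08 (edgeR adjusted p = 0.0031). Among cholesterol genes NSDHL differed by -0.52 (edgeR adjusted p = 0.020), with untreated values of 60.8, 62.3 and 70.6 CPM in MUT and 65.2, 61.8 and 64.5 CPM in WT. That call was lost without treated MUT replicate 1, treated MUT replicate 3, treated WT replicate 2 or untreated WT replicate 3 (adjusted p from 0.052 to 0.074). DHCR7 (-0.47) and FDFT1 (-0.38) were called by the full fit but each lost its call in 9 of the 12 fits that left out 1 library.

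The empty vector line gives each difference a position, although its comparisons use the same MUT and WT libraries and are no independent evidence. After cytarabine MUT differed from EV at 2548 genes (14.0%) and WT from EV at 3013 genes (16.5%). Of the 1889 genes higher in MUT than in WT, the mean of EV lay between the lines at 1241, above both at 395 and below both at 253, and it was nearer to MUT at 1097 and nearer to WT at 792. WT was called lower than EV at 820 of them, MUT higher than EV at 563, and both held at 71. Of the 1727 lower genes EV lay between at 1176, with WT called higher than EV at 620, MUT lower than EV at 547 and both at 42. KRT8, COL1A1 and COL16A1 were called lower in WT than in EV and not called between MUT and EV, with log2 differences between WT and EV of -1.79, -1.83 and -1.62 and between MUT and EV of 0.14, 0.17 and 0.27. KRT75 and TNFRSF11B were called higher in MUT than in EV and not lower in WT, at 0.42 and 0.22 for WT and 2.38 and 1.56 for MUT. At KRT75 WT was itself called higher than EV (edgeR adjusted p = 0.018). Both calls, WT lower and MUT higher than EV, held for IL2RB (-2.51 for WT and 0.58 for MUT) and DNMT3B (-0.53 and 0.30).

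Called genes were not spread evenly over the chromosomes. On chromosome 13, 110 of 316 tested genes were higher in MUT (34.8%) and 5 were lower, and the median log2 difference was 0.30 with drug and 0.22 without. Chromosome 2 had 206 higher and 52 lower of 1222 (median 0.12) and chromosome 21 had 40 higher and 9 lower of 189 (0.11). Chromosome 3 had 58 higher and 198 lower of 1016 (-0.13) and chromosome 9 had 45 higher and 125 lower of 718 (-0.10). For chromosome 13 the median was 0.24 between MUT and EV and -0.06 between WT and EV, and for chromosome 3 these were -0.07 and 0.07.

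In 278 windows of 10 Mb with at least 20 tested genes, the 3 highest medians were all on chromosome 13. Between 100 and 110 Mb the median was 0.54 with drug and 0.54 without (9 higher and 1 lower of 22 genes), between 90 and 100 Mb it was 0.46 (15 higher, 0 lower of 25), and between 110 and 120 Mb 0.36 (21 higher, 0 lower of 41). The peptidase TPP2 stood at 55.6, 57.4 and 54.7 CPM in MUT and at 36.7, 37.0 and 34.9 CPM in WT (0.63, SE 0.07), the small GTPase RAP2A at 74.6, 69.4 and 77.3 CPM against 46.4, 44.2 and 44.3 CPM (0.71, SE 0.08) and GAS6, a ligand of TAM receptors, at 93.3, 83.7 and 89.6 CPM against 54.0, 59.0 and 61.5 CPM (0.61, SE 0.09). The libraries of the lines did not overlap at these 3 genes. The lowest medians were on chromosome 9 between 60 and 70 Mb (-0.41; 0 higher, 7 lower of 32), chromosome 3 between 180 and 190 Mb (-0.32; 3 higher, 30 lower of 71), chromosome 16 between 70 and 80 Mb (-0.31; 2 higher, 28 lower of 71) and chromosome 12 between 20 and 30 Mb (-0.29; 1 higher, 19 lower of 50). In the last, TM7SF3 stood at 193, 191 and 193 CPM in MUT and at 297, 307 and 291 CPM in WT (-0.63, SE 0.06), with EV at 302, 339 and 332 CPM. On chromosome 3 the ETS factor ETV5 was lower (-0.59) while the glycosyltransferase gene B3GNT5 was higher (0.99), and untreated medians had the sign of the treated ones in all of these windows.

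**Figure D5:**
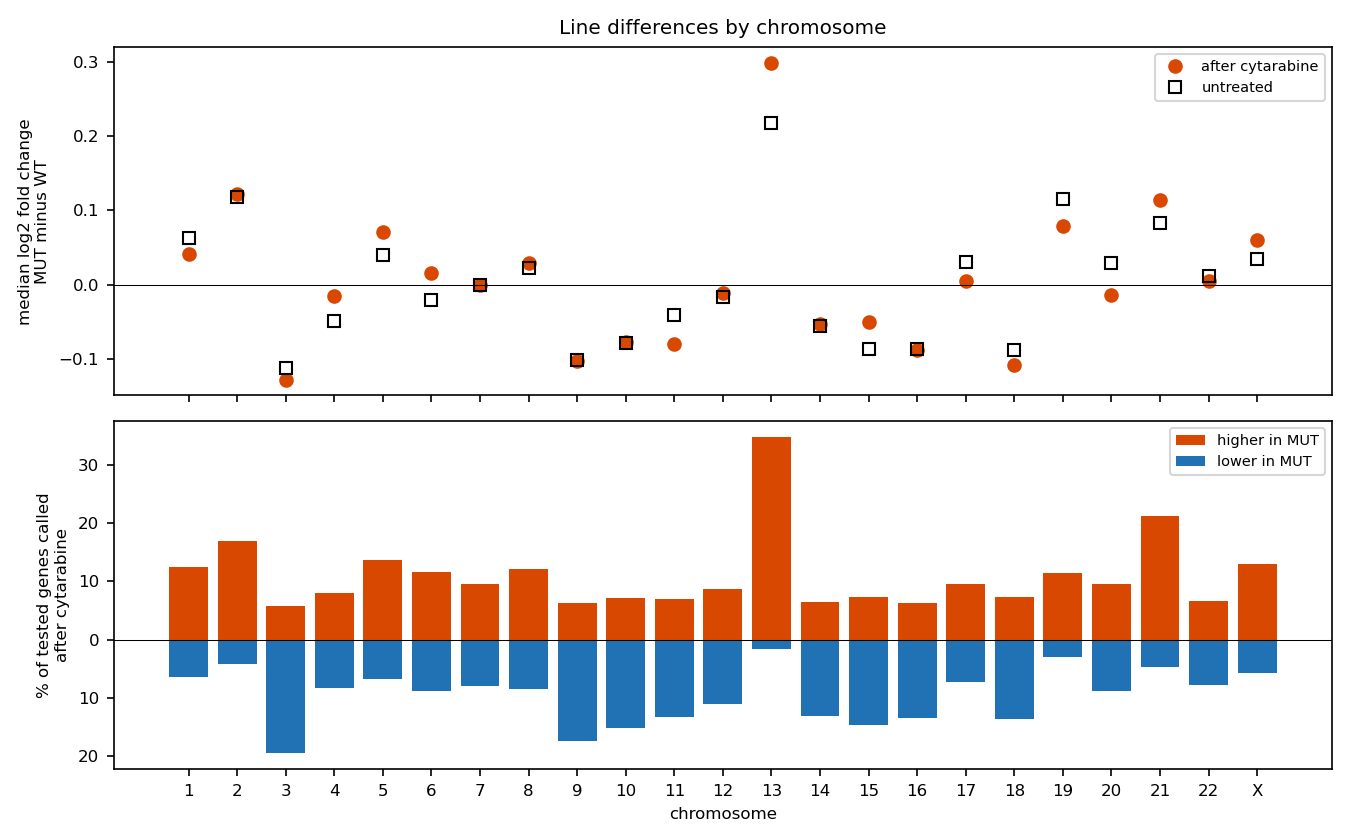
Upper panel, median log2 difference between MUT and WT for the tested genes of each chromosome, after cytarabine (filled) and untreated (open); lower panel, percent of tested genes called higher (upward bars) and lower (downward bars) after cytarabine. Chromosome 13 stands highest, with a median of 0.30 and 34.8% of its genes higher in MUT.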

How the data were processed

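RNA of 18 U2OS libraries was sequenced, and the authors deposited estimated counts, one row a gene symbol (25296 genes, 70.4% of values whole, not normalized). Per the submitters' processing notes, CASAVA, STAR 2.6.1d and hg38 were used; the counting tool, strand handling and reads with several matches are not given in the sources used here. The authors also deposited a normalized signal for 19591 genes, in which each value is the estimated count multiplied by a library factor, plus 1 (largest relative deviation 7.33e-06), and these factors served as an alternative scaling. In the counts, 26 symbols had become dates and 4 rows shared a symbol; none is named.

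Estimated counts were rounded and analysed with edgeR 4.0.16 (limma 3.58.1, R 4.3.3): filterByExpr left 18226 genes, TMM factors scaled the libraries, and 1 quasi-likelihood model with 6 group coefficients was fitted to all 18 libraries, as planned. Contrasts took the F test of that model, with Benjamini-Hochberg adjustment over all tested genes and a threshold of 0.05. An SE is the size of the log2 difference over the root of its F. The test was tried on simulated data. Tables and figures were made with Python 3.11.15, pandas 2.3.3 and matplotlib 3.10.9. Groups and replicate numbers came from the sample titles. Replicate numbers were not taken to pair the cultures (the closing section gives the check). Totals of 15.4 to 21.9 M counts a library bound the precision for genes of low abundance.

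The gene lists, the comparison and the rule for named genes were chosen with earlier results of these data known. Named were DNMT3A; the 12 largest rises and 12 largest falls among called protein-coding genes whose mean log2 CPM was 2 or more and whose replicates did not overlap; the 6 rises and 6 falls with the smallest p at a mean log2 CPM of at least 6; the 3 largest each way of other gene types; up to 4 called genes each way in each list by p; the 5 largest each way among genes with a called difference of cytarabine effects that were called only after treatment; up to 3 genes by p in 8 chromosome windows; and 24 genes of a fixed panel. Genes whose call was lost in an alternative are mostly left out of the text, and a few other named genes are not reported here. Promoter windows were planned from a RefSeq table; it covered too few genes of some sets, so they were read from hg38 at the starts of canonical transcripts in GENCODE v44 (96.1% of tested protein-coding genes matched). Alternatives were DESeq2 1.42.0, RLE, upper-quartile and the authors' factors, no filter on low counts, a mean of at least 50 counts, a minimum absolute log2 difference of 1, smaller sets of libraries, a replicate block and leaving out each library.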

Additional observations from a re-analysis of the deposited data

Results flagged for a closer look

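The values in this section are differences on the log2 scale between the cytarabine effect in MUT and that in WT, each with an adjusted p under 0.05 in edgeR's quasi-likelihood test of the difference itself. They were called at 183 genes. Of the 29 named genes among them, 13 kept the call whichever of the 12 libraries was left out. Of these, TXNIP (1.31), CCDC144NL (1.25), SEMA3B (1.12), AC097374.1 (1.12), COL11A1 (0.93), LOXL3 (0.88), TNFRSF11B (0.71), SEMA3E (0.63), TGFB2 (0.60) and LIMCH1 (0.55) were positive, and ARC (-1.20), HIST1H2AG (-1.08) and SERTAD1 (-0.84) were negative. CCDC144NL, listed among the genes whose lines differed only after treatment, overlaps another gene in the annotation.

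The other 16 lost the call in at least 1 such fit. Positive were ATOH8 (1.44), ITGB8 (0.80), the guidance gene NTN4 (0.62) and COL1A1 (0.62). Negative were ESM1 (-1.50), RGS20, a regulator of G-protein signalling (-1.11), MYH16 (-0.82), POLR3GL, a subunit of RNA polymerase III (-0.75), PPP1R3C, a glycogen-targeting phosphatase subunit (-0.74), CCDC58 (-0.68), PARP10 (-0.64), TAP1 (-0.58), the cholesterol synthesis genes NSDHL (-0.52), DHCR7 (-0.47) and FDFT1 (-0.38), and TUBB2B (-0.41). TAP1 was lost only without treated MUT replicate 3 (adjusted p = 0.052).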

How the results depend on the processing

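The direction of the 241 named genes called between treated MUT and WT did not reverse in any alternative, and 184 of them kept their call in every alternative except a minimum absolute log2 difference of 1. The 3616 called genes were 6113 with the 6 compared libraries alone, 5613 without the untreated MUT libraries, 101 with the minimum difference, and 2313 to 2866 when 1 library was left out (1882 genes, 52.0%, were called in all 6 of these fits). DESeq2 (3884), RLE (3623), upper-quartile (3703) and the authors' factors (3510), no filter (3309), a mean of at least 50 counts (3460) and the 9 treated libraries alone (4807) stayed within 1.5 times. The untreated contrast (3872) gave 91 genes with the minimum difference, 1171 with the compared libraries alone and 2784 to 4541 when 1 library was left out. The difference of cytarabine effects (183) gave 795 genes with DESeq2, 278 with RLE factors, 375 with a mean of at least 50 counts, 51 with the compared libraries alone, 0 by edgeR with the minimum difference (2810 genes had an unadjusted p under 0.05 in the full fit), and 38 to 810 when 1 library was left out. The log2 difference of DNMT3A ran from 1.53 to 1.59 and kept its call except against the minimum difference (1.57, adjusted p = 0.0817). The causes were not tested. Same-numbered MUT and WT libraries did not deviate together (correlations of -0.014, 0.196 and -0.317), so numbers were not taken as pairs; a replicate block gave 3607, 3820 and 166 genes for these contrasts and 1.57 for DNMT3A. Other scalings put the median over all genes between -0.003 and 0.020 for the treated contrast, and RLE factors moved it to 0.047 for the untreated contrast and -0.051 for the difference of effects. Genes of low abundance are limited by their counts.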
